A study of Mus musculus with 8 samples.

Results

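The transfer RNAs described here carry isoleucine (Ile), methionine (Met), phenylalanine (Phe) and tryptophan (Trp), all of them hydrophobic amino acids. They were taken by name from a table of small RNAs: every row named as a tRNA gene for 1 of these 4 amino acids, whatever its level. This gave 46 of the 964 rows and of the 328 tRNA rows. The 46 rows are gene copies of 5 isoacceptors, that is, of tRNAs defined by amino acid and anticodon: 11 copies of tRNA-Ile-AAT, 3 of tRNA-Ile-TAT, 18 of tRNA-Met-CAT, 6 of tRNA-Phe-GAA and 8 of tRNA-Trp-CCA. The libraries came from 4 samples with the genotype iMLL-ENL and 4 WT samples of GMLPs from mouse bone marrow, progenitors that give rise to granulocytes, monocytes and lymphocytes. MLL-ENL is a leukaemia fusion of the histone methyltransferase MLL with ENL, a component of transcription elongation complexes, and the prefix marks an inducible form. Per the labels' protocols, sorted cells of both groups were cultured for 3 days with DOX, so the WT cells had the drug too. The labels name neither the promoter that drives the fusion nor the age of the mice, and leave unsaid whether each replicate was its own mouse. The p-values below therefore reflect only how far these libraries spread, which can be technical. The small RNA table has no protein-coding marker by which the GMLP label could be checked.

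A tRNA brings its amino acid to the ribosome and pairs with the codon through its anticodon. In tRNA-Ile-AAT the first anticodon base is converted from adenosine to inosine, which lets it read isoleucine codons that end in U, C or A, while tRNA-Ile-TAT, whose mammalian genes contain an intron that must be spliced out, reads AUA. The anticodon CAT is shared by the initiator tRNA-Met, which starts every protein, and the elongator tRNA-Met, which adds methionine inside a chain. tRNA-Phe carries a bulky modified guanosine next to its anticodon, and tRNA-Trp reads UGG, the only tryptophan codon. RNA polymerase III transcribes these genes, and many copies of a tRNA are identical or nearly so.

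RefSeq lists 47 nuclear genes for these tRNAs on GRCm38.p6, a patch release of the build named in the submitters' processing notes. Of these, 23 lie on chromosome 13 between bases 21161405 and 23530419, a stretch that also holds the large histone gene cluster. All 8 tRNA-Trp genes are 72 bases long and all 7 tRNA-Phe genes are 73 bases long. The 16 tRNA-Met genes fall into 9 of 72 bases and 7 of 73 bases. For isoleucine, 11 genes are 74 bases long, 1 is 73 bases long, and 4 are 93 to 96 bases long, among them the gene that RefSeq names n-TItat14. The row names of the deposited table have no chromosome, so no row was tied to a RefSeq gene, and initiator and elongator tRNA-Met were not told apart.

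Values are in RPM, reads scaled to 1 fixed total per library, and the rows of the table sum to less than that total. In every library all 46 copies were above 0, with the lowest at an estimated 15 to 36 reads and the highest at 791 to 1575 reads, and together they held an estimated 9234 to 16001 reads per library. Read lengths were not analysed, so whole tRNAs and tRNA fragments were not told apart. In these bulk samples, fewer cells of a type and less RNA per cell cannot be told apart either. WT replicate 2 stood apart: it correlated with its own group at 0.908 on average, where the iMLL-ENL libraries reached 0.990 to 0.994 and the rest of the WT libraries 0.955 to 0.968. It was above 2 times the highest other WT library in 211 of all 964 rows (21.9%), among them 2 copies of tRNA-Ile-AAT, 1 of tRNA-Ile-TAT and 1 of tRNA-Trp-CCA. It was under 1/2 of the lowest other WT library in 24 rows (2.49%), and 8 of these 24 were copies of tRNA-Met-CAT. The isoacceptor sums and the isoleucine ratio below are therefore given with and without this library, as are some of the single copies. Where no value without it is printed, the result includes it.

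Summed over copies, tRNA-Ile-AAT and tRNA-Phe-GAA rose in iMLL-ENL cells on the deposited scale, tRNA-Met-CAT was higher in every iMLL-ENL library without passing the test, and tRNA-Ile-TAT and tRNA-Trp-CCA did not pass it. The limma test on log2(RPM + 1) called a difference at a Benjamini-Hochberg adjusted p under 0.05 over all 67 RNA families of the table. It called 2 of the 5 isoacceptors higher and 0 lower. Of all families it called 26.9% higher and 17.9% lower, and of the 48 tRNA isoacceptors 22.9% higher and 22.9% lower. In 3 of the 5 all iMLL-ENL libraries lay above all WT libraries, beside 14 of the 48 tRNA isoacceptors (29.2%), and this count was not tested.

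**Figure D1:**
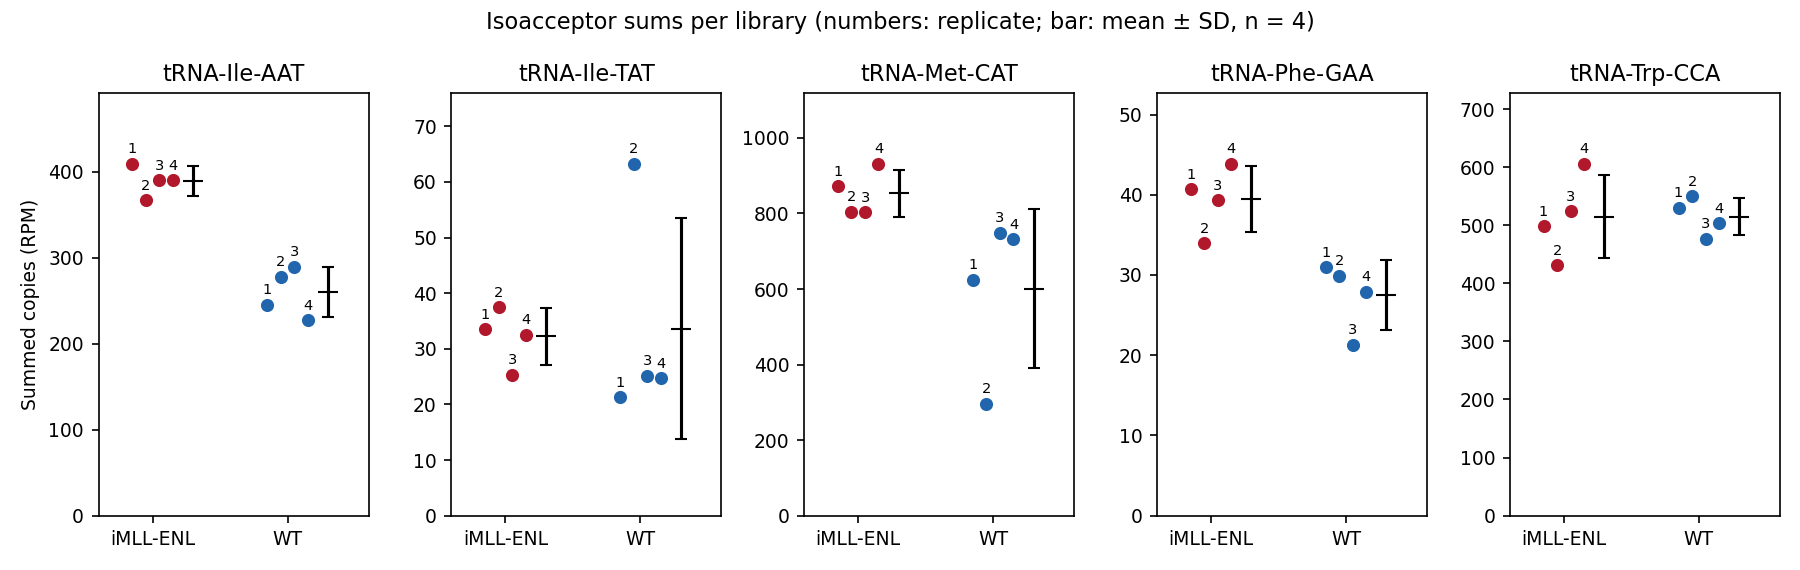
Each panel shows the summed copies of an isoacceptor in RPM on an axis from 0, with a point per library numbered by replicate and the mean ± SD of 4 libraries beside them. The iMLL-ENL points lie above all WT points for tRNA-Ile-AAT, tRNA-Met-CAT and tRNA-Phe-GAA, and WT replicate 2 is far below the other WT points for tRNA-Met-CAT (296 RPM) and far above them for tRNA-Ile-TAT (63.3 RPM).

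The tRNA-Ile-AAT copies summed to 409, 367, 390 and 391 RPM in iMLL-ENL replicates 1 to 4, against 246, 278, 289 and 227 RPM in WT replicates 1 to 4. The groups did not overlap, and WT replicate 2 lay among the other WT libraries. The means were 389 ± 17 and 260 ± 29 RPM (SD, n = 4 each). This was a log2 fold change of 0.59 ± 0.11 (SE, adjusted p = 0.0060 in limma), and 0.62 without WT replicate 2 (adjusted p = 0.00015). It ranked 5 of 48 tRNA isoacceptors by log2 fold change and 24 of 48 by level.

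The tRNA-Phe-GAA copies, the least abundant but for tRNA-Ile-TAT, summed to 40.7, 34.0, 39.4 and 43.9 RPM in iMLL-ENL replicates 1 to 4, against 30.9, 29.9, 21.3 and 27.9 RPM in WT replicates 1 to 4. The groups did not overlap, with iMLL-ENL replicate 2 nearest to the WT libraries. The log2 fold change of 0.51 ± 0.14 (SE) passed the limma test (adjusted p = 0.019). Without WT replicate 2 it was 0.56 (adjusted p = 0.00044). The call ended without iMLL-ENL replicate 1 (adjusted p = 0.051) or iMLL-ENL replicate 4 (adjusted p = 0.060).

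The tRNA-Met-CAT copies, the most abundant of the 5, summed to 873, 804, 804 and 931 RPM in iMLL-ENL replicates 1 to 4, against 625, 296, 749 and 732 RPM in WT replicates 1 to 4. All iMLL-ENL libraries were higher than all WT libraries, and WT replicate 2 was lower than the rest of its group. The means were 853 ± 61 and 601 ± 210 RPM (SD, n = 4 each), and the log2 fold change of 0.59 ± 0.28 (SE) did not pass the limma test (adjusted p = 0.11). Without WT replicate 2 the log2 fold change was 0.28 (adjusted p = 0.13), less than 1/2 of the value with it.

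The tRNA-Ile-TAT copies summed to 33.5, 37.5, 25.4 and 32.6 RPM in iMLL-ENL replicates 1 to 4, against 21.3, 63.3, 25.2 and 24.7 RPM in WT replicates 1 to 4. WT replicate 2 was the highest of all 8 libraries, and the 3 other WT libraries were all lower than the lowest iMLL-ENL library. The log2 fold change of 0.07 ± 0.31 (SE) did not pass the limma test (adjusted p = 0.86). It was 0.42 without WT replicate 2, where it passed (adjusted p = 0.011). In that setting 41.1% of the rows tested singly were also called higher, a share of rows and not of families. Of the 67 families, 20 to 38 were called in either direction with 1 library left out. WT replicate 3 and iMLL-ENL replicate 3 were almost level, and neither tested copy of tRNA-Ile-TAT passed there.

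The tRNA-Trp-CCA copies summed to 498, 432, 524 and 606 RPM in iMLL-ENL replicates 1 to 4, against 530, 550, 477 and 503 RPM in WT replicates 1 to 4. The groups overlapped, with the highest and the lowest library both in iMLL-ENL. The log2 fold change of -0.01 ± 0.13 (SE) did not pass the limma test (adjusted p = 0.96), and it was 0.02 without WT replicate 2.

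Within isoleucine, the ratio of summed tRNA-Ile-TAT to summed tRNA-Ile-AAT in a library is not changed by multiplying the library by a factor, though quantile normalization can change it. It was 8.18%, 10.2%, 6.50% and 8.34% in iMLL-ENL replicates 1 to 4, against 8.66%, 22.7%, 8.70% and 10.9% in WT replicates 1 to 4. The groups overlapped, and WT replicate 2 was the highest. The mean log2 ratio was lower in iMLL-ENL by a difference of -0.51, which did not pass a two-sided exact permutation test over the 70 assignments of libraries (p = 0.14, where 0.0286 is the smallest this design allows). Without WT replicate 2 the difference was -0.19 (exact p = 0.31). A p of this size does not show that both isoacceptors responded alike.

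The calls of these sums changed with how libraries were scaled. On the deposited scale the median log2 fold change of all 633 tested rows was 0.31, while TMM scaling, which sets libraries by a trimmed mean of their ratios, moved it to -0.07. After TMM scaling tRNA-Ile-AAT was at 0.19 (adjusted p = 0.38), tRNA-Met-CAT at 0.20 (0.70) and tRNA-Phe-GAA at 0.13 (0.50), all above the median of the rows, and tRNA-Trp-CCA was called lower at -0.40 (adjusted p = 0.032). After quantile normalization tRNA-Ile-AAT was at 0.52 (adjusted p = 0.14) and tRNA-Phe-GAA at 0.04 (0.84). When each library was scaled to its own tRNA total, tRNA-Ile-AAT was at 1.03 (adjusted p = 6.0e-05), tRNA-Met-CAT at 1.04 (0.014), tRNA-Phe-GAA at 0.95 (0.00086), and tRNA-Trp-CCA at 0.44, now called higher (0.025). tRNA-Ile-AAT, tRNA-Met-CAT and tRNA-Phe-GAA kept log2 fold changes above 0 in all 7 scalings, and tRNA-Ile-TAT and tRNA-Trp-CCA changed sign between them.

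**Figure D2:**
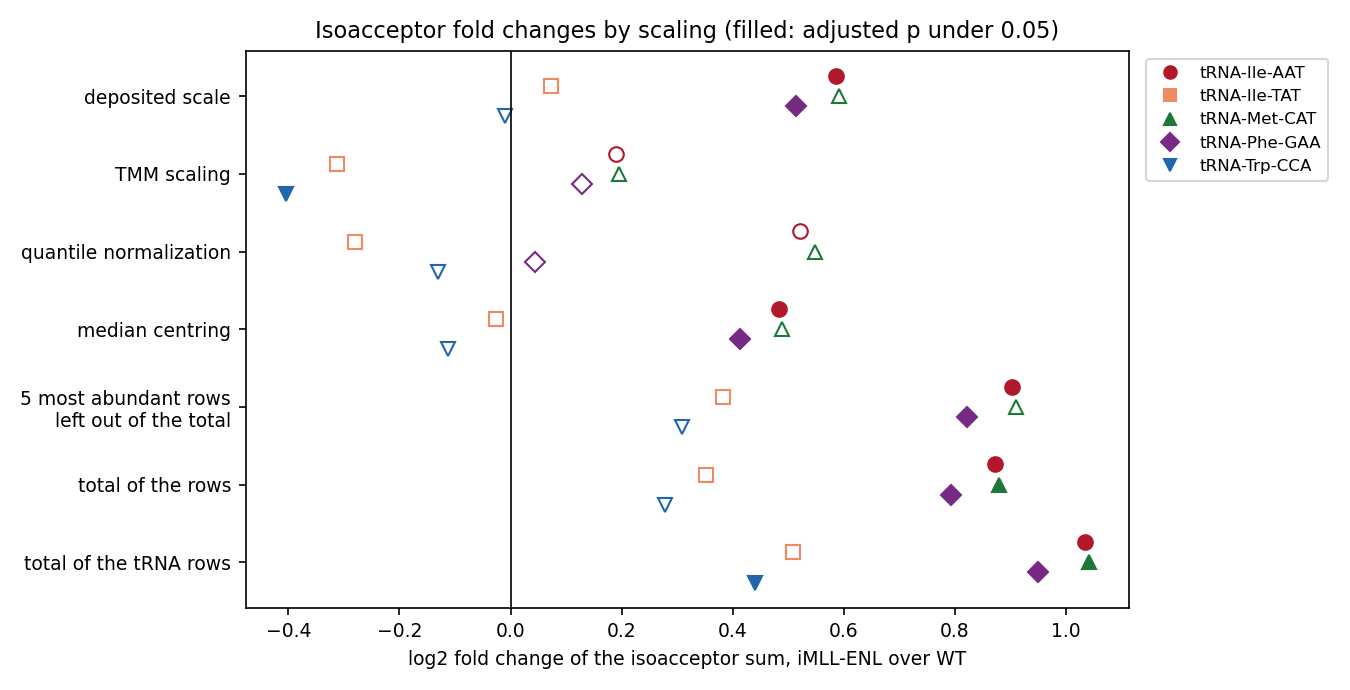
Points show the log2 fold change of each isoacceptor sum, iMLL-ENL over WT, under 7 scalings of the libraries from the deposited scale at the top to the tRNA total at the bottom, filled where the adjusted p was under 0.05. tRNA-Ile-AAT, tRNA-Met-CAT and tRNA-Phe-GAA stay right of 0 throughout, from 0.04 to 1.04, while tRNA-Trp-CCA runs from -0.40 to 0.44 and tRNA-Ile-TAT from -0.31 to 0.51.

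As a share of all tRNA reads, the 46 copies together took 0.813%, 0.837%, 0.882% and 0.901% in iMLL-ENL replicates 1 to 4, against 0.495%, 0.366%, 0.522% and 0.618% in WT replicates 1 to 4. The groups did not overlap, and WT replicate 2 had the lowest share. All tRNA rows together summed to 213220 ± 14201 RPM in iMLL-ENL and 292631 ± 35839 RPM in WT (SD, n = 4 each), so the total that these shares divide by was itself lower in iMLL-ENL. The 46 copies alone summed to 1829 ± 138 RPM in iMLL-ENL and 1437 ± 153 RPM in WT (SD, n = 4 each).

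Single copies were tested where at least 4 of the 8 libraries reached 10 RPM, a filter that 31 of the 46 passed: all 11 copies of tRNA-Ile-AAT, 2 of tRNA-Ile-TAT, 10 of tRNA-Met-CAT, 0 of tRNA-Phe-GAA and all 8 of tRNA-Trp-CCA. The limma test, adjusted over all 633 tested rows, called 8 of the 31 higher and 1 lower, where it called 20.4% of all tested rows higher and 8.53% lower, and among tested tRNA rows 18.3% higher and 19.1% lower, 37.4% in all. The 8 were 7 copies of tRNA-Ile-AAT and 1 of tRNA-Trp-CCA, and the copy that fell was also a tRNA-Trp-CCA. The median log2 fold change of the 31 was 0.47, beside 0.31 for all tested rows and -0.04 for the remaining 247 tested tRNA rows. Without WT replicate 2, 11 of the 31 were called higher and 1 lower, where 41.1% of all tested rows were called higher and 15.5% lower. Of these 11, tRNA62-IleAAT and tRNA315-IleAAT then reached 10 RPM in iMLL-ENL libraries only, so the count is no support for a difference in them. The count called higher was 1, tRNA100-IleAAT, when WT replicate 1, or replicate 1, 3 or 4 of iMLL-ENL, was left out. After TMM scaling the split turned round, with 1 higher and 7 lower, where 5.53% of all tested rows were higher and 20.2% lower. Among all 46 copies, tested or not, the groups did not overlap in 16 with iMLL-ENL higher and 2 with iMLL-ENL lower, beside 29.3% and 7.99% of all 964 rows. Over the 633 tested rows these shares were 27.2% and 11.4%. Copies of an isoacceptor may share reads, which was not tested, so these counts may not be counts of independent genes.

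**Figure D3:**
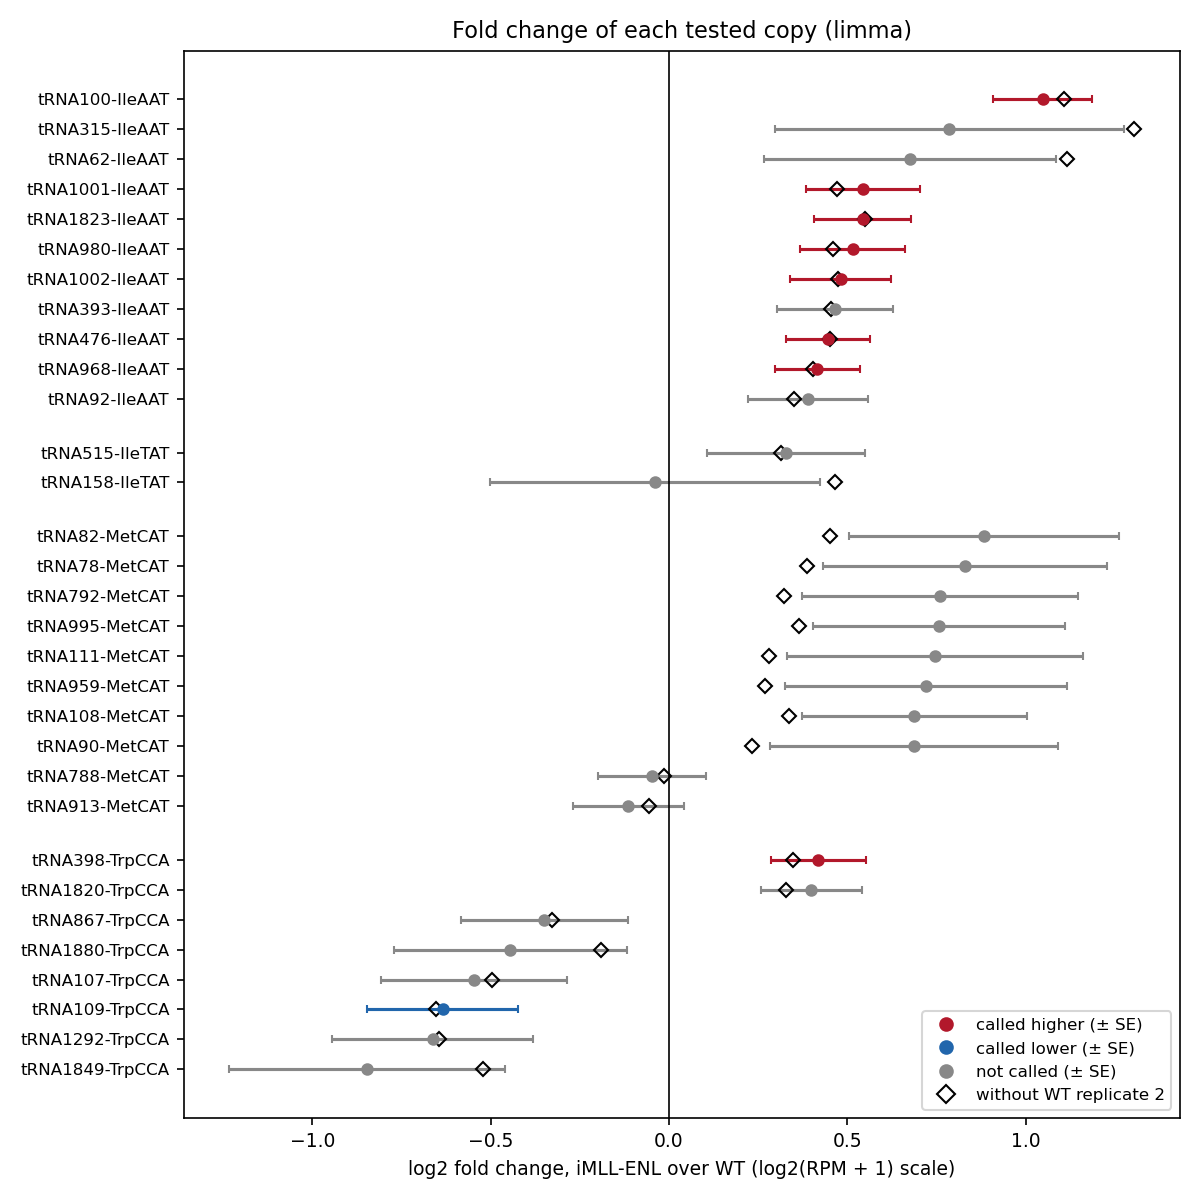
Circles show the log2 fold change of each of the 31 tested copies, iMLL-ENL over WT, with SE, coloured by the limma call, and open diamonds show the value without WT replicate 2. The tRNA-Ile-AAT copies all lie right of 0, 8 tRNA-Met-CAT copies move left toward 0 without WT replicate 2, and the tRNA-Trp-CCA copies lie on both sides of 0.

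Of the tRNA-Ile-AAT copies, tRNA100-IleAAT had the highest log2 fold change with all libraries included. It was at 74.2, 82.6, 78.0 and 72.0 RPM in iMLL-ENL replicates 1 to 4, against 34.2, 41.6, 39.7 and 31.5 RPM in WT replicates 1 to 4. Every iMLL-ENL library was well above every WT library. Its log2 fold change of 1.05 ± 0.14 (SE) passed the limma test (adjusted p = 0.0023). It also passed after each of the 6 other scalings and with any 1 library left out, at 0.66 after TMM scaling (adjusted p = 0.020). Without WT replicate 2, tRNA315-IleAAT (1.31) and tRNA62-IleAAT (1.12) were above tRNA100-IleAAT, which was then at 1.11. Its share of the isoacceptor's reads, which a factor per library does not change, was 18.1%, 22.5%, 19.99% and 18.4% in iMLL-ENL replicates 1 to 4, against 13.9%, 14.9%, 13.7% and 13.9% in WT replicates 1 to 4. These shares did not overlap either, and since the copy is named for its fold change they are a description.

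Of the other tRNA-Ile-AAT copies, 8 lay close together, between 29.4 and 44.8 RPM in iMLL-ENL libraries and between 19.7 and 36.5 RPM in WT libraries, with log2 fold changes of 0.39 to 0.54. The copies tRNA968-IleAAT, tRNA980-IleAAT, tRNA476-IleAAT, tRNA1002-IleAAT, tRNA1001-IleAAT and tRNA1823-IleAAT were called higher (adjusted p = 0.022 to 0.035 in limma). For example, tRNA476-IleAAT had 35.7, 33.2, 32.8 and 35.1 RPM in iMLL-ENL replicates 1 to 4, against 25.2, 25.1, 25.2 and 23.8 RPM in WT replicates 1 to 4. All 6 calls ended after TMM scaling, where the log2 fold changes were 0.03 to 0.16. They also ended after median centring at 0.32 to 0.44 and after quantile normalization at 0.40 to 0.49. When WT replicate 1, or replicate 1, 3 or 4 of iMLL-ENL, was left out, all 6 calls ended with log2 fold changes of 0.39 to 0.56, close to those with all libraries, and adjusted p of 0.0502 to 0.096. Without WT replicate 4 the calls of tRNA980-IleAAT, tRNA1001-IleAAT and tRNA1002-IleAAT ended too (adjusted p = 0.052, 0.055 and 0.059 in limma). That of tRNA1002-IleAAT also ended without iMLL-ENL replicate 2 (adjusted p = 0.057). The copy tRNA92-IleAAT had the lowest log2 fold change of the isoacceptor, 0.39 ± 0.17 (SE, adjusted p = 0.10), with WT replicate 3 at 36.5 RPM inside the iMLL-ENL range of 32.4 to 42.9 RPM.

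The copies tRNA62-IleAAT and tRNA315-IleAAT, named after their values were seen, behaved differently in WT replicate 2. tRNA62-IleAAT was at 11.03, 13.6, 13.1 and 13.5 RPM in iMLL-ENL replicates 1 to 4, against 5.60, 20.5, 5.58 and 4.91 RPM in WT replicates 1 to 4. tRNA315-IleAAT was at 11.4, 13.5, 12.5 and 12.4 RPM in iMLL-ENL replicates 1 to 4, against 5.04, 22.0, 5.75 and 2.94 RPM in WT replicates 1 to 4. In both, WT replicate 2 was above all iMLL-ENL libraries and the other WT libraries were below them. Their log2 fold changes of 0.68 (adjusted p = 0.23) and 0.79 (adjusted p = 0.24) did not pass the test, and without WT replicate 2 they were 1.12 and 1.31. With that library left out, both copies reach 10 RPM only in iMLL-ENL libraries, so they pass the filter through the group where they are high, and these 2 values are given as a description with no test.

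Of the 3 tRNA-Ile-TAT copies, 1 also stood far apart in WT replicate 2, tRNA158-IleTAT, though in this copy WT replicate 4 was above iMLL-ENL replicate 3. tRNA158-IleTAT was at 17.7, 20.1, 12.7 and 15.7 RPM in iMLL-ENL replicates 1 to 4, against 10.8, 50.1, 10.8 and 13.2 RPM in WT replicates 1 to 4, with WT replicate 2 more than 2 times the highest other library. Its log2 fold change was -0.04 (adjusted p = 0.96) with that library and 0.47 when it was left out (adjusted p = 0.0502), and neither value passed. In tRNA515-IleTAT, at 9.21 to 13.1 RPM in iMLL-ENL libraries and 7.70 to 10.99 RPM in WT libraries, WT replicate 2 was within its group, and the log2 fold change was 0.33 ± 0.22 (SE, adjusted p = 0.28). The remaining copy, tRNA981-IleTAT, was under the filter, at 3.41 to 4.51 RPM in iMLL-ENL libraries and 2.66 to 4.42 RPM in WT libraries.

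The tRNA-Met-CAT copies were set apart here by WT replicate 2, with 8 copies chosen because it was under 1/2 of the lowest other WT library in them. In these 8, WT replicate 2 was at 18.7 to 25.9 RPM, the other WT libraries at 57.1 to 89.6 RPM and the iMLL-ENL libraries at 75.6 to 105.7 RPM. The most abundant, tRNA111-MetCAT, was at 97.4, 83.8, 89.4 and 102.1 RPM in iMLL-ENL replicates 1 to 4, against 60.5, 20.3, 89.6 and 81.9 RPM in WT replicates 1 to 4. WT replicate 3 was higher than 2 of the iMLL-ENL libraries, so the groups overlapped for this copy. The copy tRNA82-MetCAT was at 92.6, 92.6, 84.6 and 105.7 RPM in iMLL-ENL replicates 1 to 4, against 64.4, 19.9, 68.8 and 71.5 RPM in WT replicates 1 to 4, with no overlap. The log2 fold changes of the 8 were 0.69 to 0.88 and none passed the limma test (adjusted p = 0.10 to 0.22). Without WT replicate 2, tRNA82-MetCAT was at 0.45 and passed (adjusted p = 0.027), and the other 7 were at 0.23 to 0.39 and did not.

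The copy tRNA913-MetCAT, and with it tRNA788-MetCAT, which was named after its values were seen, did not share the low value in WT replicate 2. tRNA913-MetCAT was at 38.2, 30.1, 37.5 and 43.7 RPM in iMLL-ENL replicates 1 to 4, against 43.7, 45.5, 36.2 and 36.3 RPM in WT replicates 1 to 4. tRNA788-MetCAT was at 31.0, 25.8, 27.1 and 34.8 RPM in iMLL-ENL replicates 1 to 4, against 34.2, 32.7, 26.4 and 29.3 RPM in WT replicates 1 to 4. Both groups overlapped in both copies, with log2 fold changes of -0.11 (adjusted p = 0.62) and -0.05 (adjusted p = 0.84). After TMM scaling both were called lower, at -0.50 (adjusted p = 0.0396) and -0.43 (adjusted p = 0.044), and after scaling to the tRNA total they were at 0.33 and 0.39. The 8 copies under the filter ranged from 2.59 to 12.2 RPM in iMLL-ENL libraries and from 2.86 to 10.5 RPM in WT libraries. The 8 copies low in WT replicate 2 took 85.8%, 87.1%, 83.2% and 84.9% of all tRNA-Met-CAT reads in iMLL-ENL replicates 1 to 4, against 78.5%, 57.5%, 85.1% and 83.4% in WT replicates 1 to 4. The low share in WT replicate 2 follows from how the 8 were chosen.

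**Figure D4:**
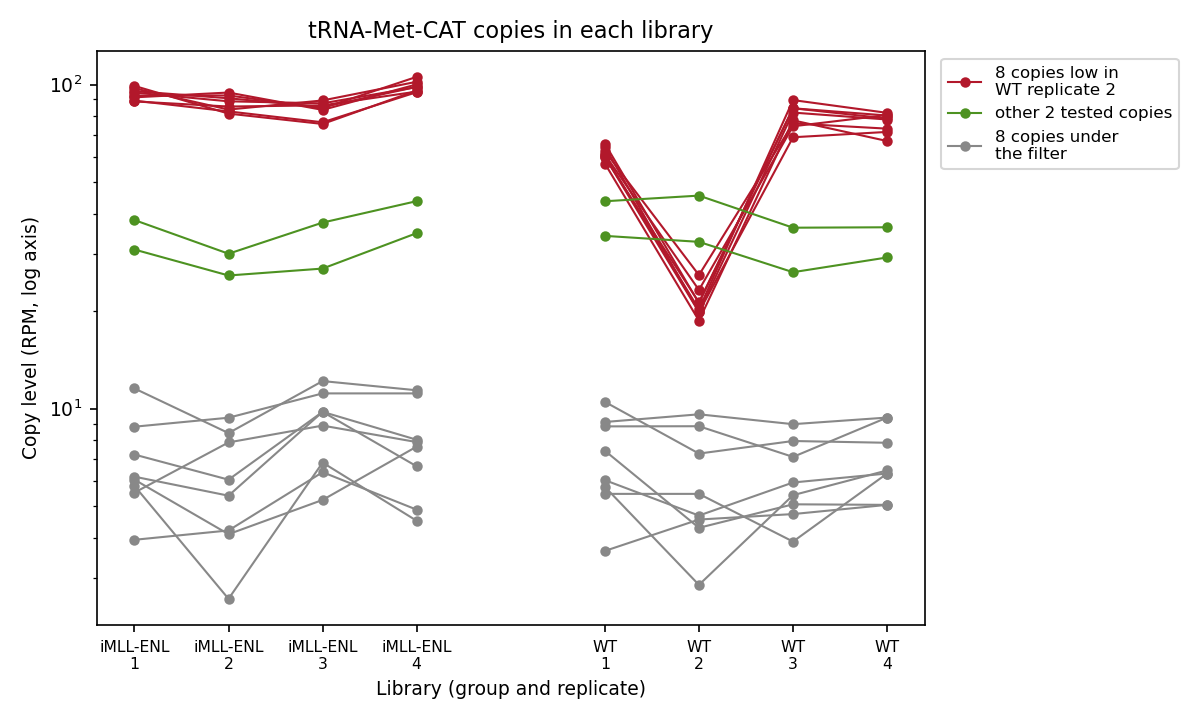
Each line joins the values of a tRNA-Met-CAT copy in RPM on a log axis over the 4 iMLL-ENL and the 4 WT libraries. The 8 most abundant copies drop together to 18.7 to 25.9 RPM in WT replicate 2, and the 2 copies below them, at 25.8 to 45.5 RPM, do not.

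All 6 tRNA-Phe-GAA copies were low and alike, at 4.74 to 9.39 RPM in iMLL-ENL libraries and 2.54 to 6.30 RPM in WT libraries, and none passed the filter. The most abundant, tRNA60-PheGAA, was at 8.67, 5.61, 6.26 and 9.39 RPM in iMLL-ENL replicates 1 to 4, against 5.32, 5.33, 3.04 and 5.19 RPM in WT replicates 1 to 4. The groups did not overlap in this copy and in tRNA1000-PheGAA, which was named after its values were seen and lay at 5.39 to 7.96 RPM in iMLL-ENL libraries and 2.54 to 4.68 RPM in WT libraries. At these levels a copy rests on few reads per library, an estimated 15 where lowest, in WT replicate 3. A fold change of a single copy on the log2(RPM + 1) scale would understate the change, and none was tested.

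The tRNA-Trp-CCA sum combined 2 copies with log2 fold changes above 0 and 6 below 0 on the deposited scale, with 1 called higher and 1 called lower. tRNA398-TrpCCA was at 149.7, 163.4, 148.7 and 182.2 RPM in iMLL-ENL replicates 1 to 4, against 117.4, 102.9, 130.4 and 130.5 RPM in WT replicates 1 to 4, and rose by a log2 fold change of 0.42 ± 0.13 (SE, adjusted p = 0.043 in limma). The most abundant copy, tRNA1820-TrpCCA, was at 163.3, 158.9, 146.7 and 197.3 RPM in iMLL-ENL replicates 1 to 4, against 121.5, 107.5, 133.8 and 140.9 RPM in WT replicates 1 to 4. Its log2 fold change of 0.40 ± 0.14 (SE) just missed the threshold (adjusted p = 0.061). In both copies every iMLL-ENL library was higher than every WT library. TMM scaling put them at 0.03 and 0.01, and the call of tRNA398-TrpCCA also ended after quantile normalization and median centring, in limma without a trend, and without any library but WT replicate 4.

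The other 6 tRNA-Trp-CCA copies had log2 fold changes of -0.85 to -0.35. tRNA109-TrpCCA was at 21.0, 13.3, 24.6 and 22.0 RPM in iMLL-ENL replicates 1 to 4, against 38.5, 30.0, 29.9 and 27.3 RPM in WT replicates 1 to 4. The groups did not overlap, and it fell by 0.63 on the log2 scale (SE 0.21, adjusted p = 0.0499 in limma). This call, at the very edge of the threshold, ended in 15 of 20 alternatives, among them the removal of any library but WT replicate 2, and after TMM scaling the copy was at -1.01 (adjusted p = 0.013). tRNA1849-TrpCCA was at 25.1, 11, 27.5 and 26.6 RPM in iMLL-ENL replicates 1 to 4, against 36.5, 77.5, 29.4 and 27.6 RPM in WT replicates 1 to 4. Its groups did not overlap, yet its lowest WT and highest iMLL-ENL library were almost level, and the log2 fold change of -0.85 ± 0.39 (SE) did not pass (adjusted p = 0.12). It was at -0.52 without WT replicate 2 (adjusted p = 0.12) and at -0.55 without iMLL-ENL replicate 2 (adjusted p = 0.28), and after TMM scaling it was called lower at -1.23 (adjusted p = 0.048).

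iMLL-ENL replicate 2 was the lowest library in all 6 of these copies, and WT replicate 2 was far above the other WT libraries in tRNA1849-TrpCCA and in tRNA1880-TrpCCA, at 80.5 RPM, which was named after its values were seen. They took 37.1%, 25.3%, 43.6% and 37.3% of all tRNA-Trp-CCA reads in iMLL-ENL replicates 1 to 4, against 54.9%, 61.7%, 44.6% and 46.1% in WT replicates 1 to 4. The highest iMLL-ENL and the lowest WT share were close. Since the copies were split by the sign of their fold change, the side on which the shares fall is set by that choice, and no test was made of it. The log2 fold changes of 5 of the 6 were below 0 under all 7 scalings, and that of tRNA867-TrpCCA, named after its values were seen, was 0.09 after scaling to the tRNA total. Both copies on the other side, tRNA398-TrpCCA and tRNA1820-TrpCCA, were above 0 under all 7, at 0.025 and 0.0059 where lowest. On the lower side, tRNA1880-TrpCCA came as near to 0 as -0.0047. The deposited scale, which set the split, is 1 of the 7, so these signs are a description only.

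**Figure D5:**
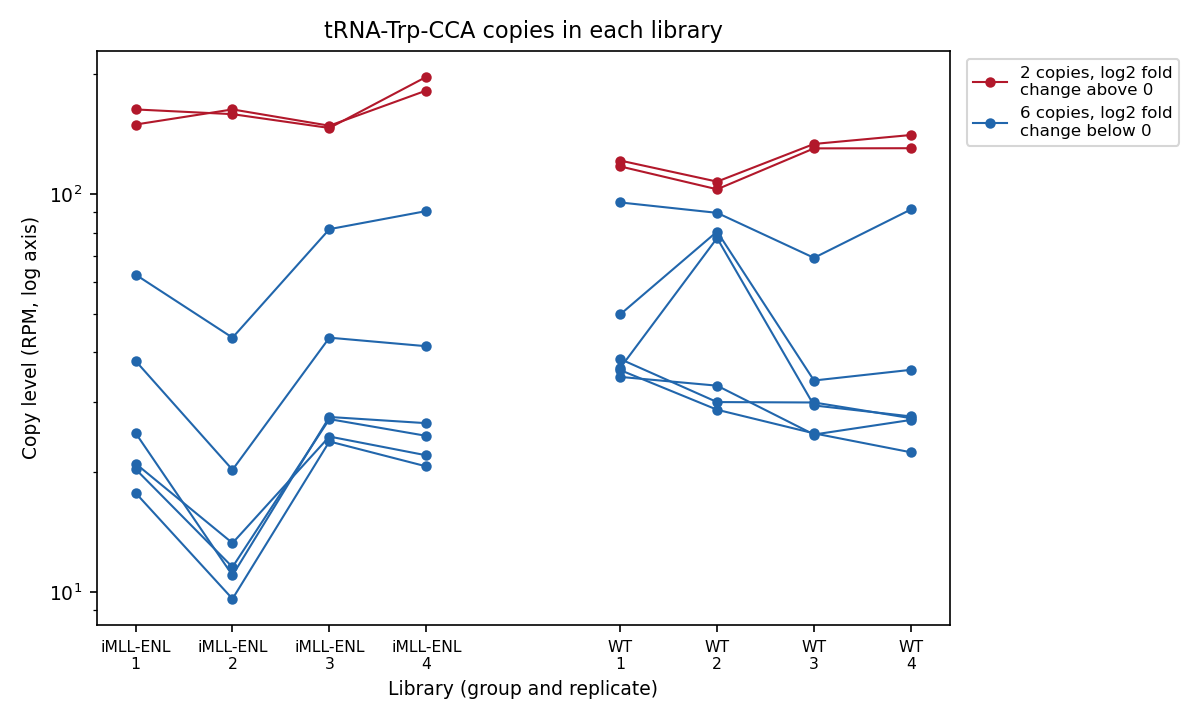
Each line joins the values of a tRNA-Trp-CCA copy in RPM on a log axis over the 4 iMLL-ENL and the 4 WT libraries. The upper 2 copies are higher in every iMLL-ENL library than in any WT library, and the lower 6 have their lowest values in iMLL-ENL replicate 2, at 9.6 to 43.6 RPM.

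In the authors' deposited table none of the 46 copies had a false discovery rate (FDR) under 0.05 with a positive log2 fold change, and 2 had one with a negative value, beside 4.56% and 11.9% of all rows. These were tRNA1849-TrpCCA (log2 fold change -1.32, FDR 0.032) and tRNA109-TrpCCA (-1.03, FDR 0.041). In the same deposited table tRNA100-IleAAT had a log2 fold change of 0.66 (FDR 0.21), and the tRNA-Ile-AAT copies had a median of 0.08. The authors' log2 fold changes of the 46 copies had a median of 0.02, beside -0.10 for all rows and -0.42 for the remaining tRNA rows of that deposited table.

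A small RNA linked to these tRNAs was also measured. In human cells the box C/D RNAs SNORD97 and SCARNA97 guide 2′-O-methylation of the wobble cytidine of elongator tRNA-Met. The table had 1 row for SNORD97 and 0 for SCARNA97. SNORD97.1-201 was at 1152, 1128, 1542 and 1450 RPM in iMLL-ENL replicates 1 to 4, against 399, 363, 322 and 558 RPM in WT replicates 1 to 4. It rose by a log2 fold change of 1.70 ± 0.21 (SE, adjusted p = 0.0022 in limma), a result already known when the row was chosen, and its call held under all 6 other scalings. None of the 10 tested tRNA-Met-CAT copies passed in the reported fit with all libraries on the deposited scale. Without WT replicate 2, tRNA82-MetCAT passed (adjusted p = 0.027 in limma). Methylation of tRNA-Met was not measured.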

How the data were processed

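Small RNA libraries made with the QIAseq kit, 4 iMLL-ENL and 4 WT, were compared. In the 1 table that the authors deposited, each library has its values as RPM (the table's name says TPM), beside their own log2 fold change, mean log2 CPM, p-value and FDR, per the file headers. The build was GRCm38, per the submitters' processing notes. The aligner, counter, annotation and handling of multiply mapped reads were not given in the sources used here. All values under 12 RPM were whole multiples, within 0.0055 RPM, of a step of 0.108 to 0.169 RPM, taken as 1 read, which puts 5910000 to 9270000 reads behind each scale. Depth thus rests on an estimate, and no count model was run. A level of 3 reads lay at 0.32 to 0.51 RPM.

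limma 3.58.1 with statmod 1.5.0 (R 4.3.3) tested log2(RPM + 1) with a trended, robust prior, two-sided. Copies were tested where 4 or more libraries reached 10 RPM. Rows were also summed into 67 families by name, without a filter. On simulated data of 633 rows, 99% of rows changed by 1 log2 unit were recovered. The simulation gave every row the same spread and set no library apart. It therefore checks the fit and does not give the power for these copies, many of which had smaller fold changes. Python 3.11.15, numpy 2.4.6, pandas 2.3.3 and matplotlib 3.10.9 gave the descriptions and plots. Named copies were, per isoacceptor, the most abundant, those with the highest and lowest log2 fold change, and every copy called. The members, lists and tests were chosen with earlier results of these data known. Alternatives were 6 other scalings, other pseudocounts and filters, limma without a trend, sample weights, a replicate block and leaving out each library.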

Additional observations from a re-analysis of the deposited data

Results flagged for a closer look

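In 7 of the 50 groups of 4 libraries checked, over 25 results, the gap of 1 library to the nearest of the others, as a share of the group's range, exceeded Dixon's 95% critical value. Chance alone does this in about 1 in 20 independent groups, but the groups here overlap, so 7 is not to be read against that rate. For example, tRNA158-IleTAT is part of the tRNA-Ile-TAT sum, and that sum is part of the ratio to tRNA-Ile-AAT. The library set apart was WT replicate 2 in 4 of the 7. It was the highest WT library for the tRNA-Ile-TAT sum (63.26 RPM, others 21.3 to 25.2), for tRNA158-IleTAT (50.14 RPM, others 10.8 to 13.2) and for the ratio of tRNA-Ile-TAT to tRNA-Ile-AAT (22.7%, others 8.66% to 10.9%), and the lowest for tRNA82-MetCAT (19.87 RPM, others 64.4 to 71.5). In iMLL-ENL replicate 2, tRNA1849-TrpCCA was at 11 RPM, with the other iMLL-ENL libraries at 25.1 to 27.5. In WT replicate 3, tRNA60-PheGAA was at 3.04 RPM (others 5.19 to 5.33). In WT replicate 4, tRNA476-IleAAT was at 23.83 RPM, where the others lay within 25.1 to 25.2, so the group was tight.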

How the results depend on the processing

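The tRNA-Ile-AAT sum kept its direction in all alternatives run and lost its call after TMM scaling (0.19) and quantile normalization (0.52). tRNA-Phe-GAA lost it in the same 2 (0.13 and 0.043) and without iMLL-ENL replicate 1 or 4, and ranged over 0.40 to 0.58 with a library left out. tRNA-Met-CAT passed on the row total (0.88), on the tRNA total (1.04) and with sample quality weights (0.34, a fit that stopped before its convergence tolerance). tRNA-Ile-TAT was at -0.31 after TMM scaling, -0.28 after quantile normalization and -0.027 after median centring, and at -0.092 to 0.42 with a library left out. tRNA-Trp-CCA was at -0.40 after TMM scaling (passing), 0.31 when the total excluded the 5 top rows, 0.28 on the row total and 0.44 on the tRNA total (passing), and at -0.091 to 0.072 with a library left out. The ratio of tRNA-Ile-TAT to tRNA-Ile-AAT stayed below 0 and did not pass (-0.65 to -0.19 with a library left out). Rows called over the table, 183 in the reported fit, were 284 without the 5 top rows in the total, 278 and 328 after scaling to the row and tRNA totals, 282 without the filter, 457 with sample weights and 59 (without WT replicate 1) to 358 (without WT replicate 2) with a library left out. Families called, 30, were 15 after quantile normalization and 20 to 38 with a library left out. Copies called higher, 8, were 1 after TMM scaling, quantile normalization or median centring, 15 with the 5 rows left out, 21 after scaling to the tRNA total, 21 with sample weights and 1 to 11 with a library left out. Copies called lower, 1, were 7 after TMM scaling, 5 with sample weights, 0 after quantile normalization, with the 5 rows left out, scaled to either total, with a pseudocount of 0.5, without the filter or without a trend, and 0 to 1 with a library left out. Among named copies that were not called, the sign turned for tRNA158-IleTAT with the 5 rows left out (0.26), scaled to the row (0.23) and tRNA totals (0.39), with sample weights (0.38), without WT replicate 2 (0.47) and without iMLL-ENL replicate 3 (0.07; -0.24 to 0.47 over all libraries left out), for tRNA515-IleTAT after TMM scaling (-0.035) and quantile normalization (-0.0057), and for tRNA913-MetCAT with the 5 rows left out (0.20) and scaled to the row (0.17) and tRNA totals (0.33). The cause was not tested.

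The labels do not say that replicate numbers pair the libraries. Same-numbered deviations correlated at 0.389, 0.286, -0.133 and 0.420. iMLL-ENL replicates 1, 2 and 4 correlated best with the WT library of their own number and replicate 3 did not, a hint from the data only. With a replicate block 193 rows, 24 families, 9 copies higher and 0 lower were called. tRNA1820-TrpCCA gained a call (adjusted p = 0.049) and tRNA109-TrpCCA lost its call (adjusted p = 0.055), and the Ile ratio had an exact sign-flip p of 0.125, the smallest that 4 pairs allow. Levels under about 10 RPM, all tRNA-Phe-GAA copies included, rest on few reads and were tested as sums.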
